A study of Rattus norvegicus with 15 samples.

Results

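The 9 listed genes belong to the matrix metalloproteinase and tissue inhibitor families, and they were looked up by gene symbol in the count table. The table holds 6 of the 9 members among its 11574 genes, namely Mmp2, Mmp14, Mmp19, Timp1, Timp2 and Timp3. Mmp3, Mmp9 and Mmp11 were not among the genes analysed here. The cells were H9c2, a myoblast line from embryonic rat heart ventricle that fuses into myotubes in low serum, so all cultures share 1 line and its genotype, given as WT. The mRNA of 15 cultures, 3 biological replicates in each of 5 groups, was made into stranded libraries. All cultures were left to attach for 24 h. T0 cultures were taken 24 h after seeding without retinoic acid (RA), T7-RA and T14-RA cultures at day 7 and day 14, after serum had been lowered from 10% to 1%, and T7+RA and T14+RA cultures at the same days in the same low serum with 1 µM all-trans RA added daily. RA was prepared in DMSO, and whether the cultures without RA received DMSO is not given in the sources used here.

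Matrix metalloproteinases (MMPs) are zinc-dependent proteases that cut collagens, laminins, fibronectin and other matrix or cell surface proteins, and they are made as inactive precursors. The tissue inhibitors of metalloproteinases (TIMPs) block the active site of the proteases. The families are also linked: on the cell surface, the membrane-bound protease MMP14 and the inhibitor TIMP2 together hold pro-MMP2 for activation, so that TIMP2 acts both as an inhibitor and as a partner in activation. In muscle, matrix turnover by these proteins is known for its part in myoblast migration, fusion and repair, and in the heart for remodelling after injury. RA acts through nuclear receptors and is long known to lower the transcription of several MMP genes in connective tissue cells. The counts measure mRNA and say nothing of secretion or activation.

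The libraries held between 508397 and 1030820 counts. Levels are given as CPM, counts scaled to a common library size, here with TMM factors. The summed CPM of the 3 measured genes of the RA label check (Cyp26b1, Dhrs3 and Tgm2, of 8 listed) lay between 4.19 and 23.2 in the 9 libraries without RA, between 540 and 565 in T7+RA and between 1032 and 1155 in T14+RA. The labels and the genes therefore match. The 8 listed myotube markers, all in the table, summed to 171 to 208 CPM at T0, 2724 to 3300 in T7-RA, 10940 to 11479 in T14-RA, 1384 to 1714 in T7+RA and 4744 to 5531 in T14+RA. Of 7 cardiomyocyte markers, Gata4 alone was in the table, at 6.90 to 21.6 CPM, and Myh6, Nppa, Nkx2-5, Tnni3, Myl7 and Ryr2 were not among the genes analysed here. In bulk samples, fewer cells of a type and less RNA per cell cannot be told apart.

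Mmp2 encodes gelatinase A, which degrades basement membrane collagen and denatured collagen (ENSRNOG00000016695, 19p11). It rose with culture time to its highest level in T14-RA, and at day 14 it was lower with RA. At T0 the level was 20.7, 3.75 and 0 CPM in the 3 cultures, from 15, 2 and 0 counts. A count of 0 in the third of these libraries allows up to 5.90 CPM before TMM scaling, an allowance that covers counting error only. Without RA the level was 38.2, 41.7 and 58.1 CPM at day 7 and 270, 267 and 273 CPM at day 14. With RA it was 19.96, 21.5 and 18.9 CPM at day 7 and 57.9, 91.2 and 79.8 CPM at day 14. The T14-RA cultures stood far above all others, the T7+RA cultures overlapped with T0 through the first T0 culture, and the T14+RA range began just below the highest T7-RA culture.

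Mmp14 encodes membrane-type 1 MMP, a cell surface collagenase (ENSRNOG00000010947, 15p13). Its level was highest at T0 and had fallen by day 14. The T0 cultures had 632, 492 and 631 CPM, the T7-RA cultures 435, 446 and 449 CPM, and the T14-RA cultures 394, 432 and 427 CPM. With RA, the level was 386, 393 and 408 CPM at day 7 and 418, 421 and 343 CPM at day 14. Every later culture was below every T0 culture.

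Mmp19 encodes a secreted MMP of broad substrate range that cuts basement membrane components (ENSRNOG00000006778, 7q11). The level was 82.8, 52.5 and 107 CPM at T0, 128, 133 and 103 CPM in T7-RA and 109, 112 and 112 CPM in T14-RA. With RA it was 104, 122 and 122 CPM at day 7 and 150, 179 and 120 CPM at day 14. The T14+RA cultures were above all T14-RA cultures, while the day 7 groups overlapped.

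The inhibitors differed among themselves. Timp1 encodes a soluble inhibitor that many cells induce on growth stimulation (ENSRNOG00000010208, Xq11). It stood at 124, 186 and 145 CPM at T0, and at 104, 77.9 and 69.7 CPM in T7-RA, 87.7, 88.6 and 89.8 CPM in T14-RA, 87.0, 91.3 and 89.1 CPM in T7+RA and 85.9, 81.7 and 87.0 CPM in T14+RA. All 12 later cultures were below all T0 cultures, and the later groups lay close together.

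Timp2 encodes the soluble inhibitor that pairs with MMP14 (ENSRNOG00000003148, 10q32.3). Its level was 570, 760 and 704 CPM at T0, 802, 808 and 763 CPM in T7-RA and 1014, 1013 and 1001 CPM in T14-RA. With RA the level was 659, 712 and 722 CPM at day 7 and 731, 737 and 843 CPM at day 14. The T14-RA cultures were above every other culture, and the groups with and without RA did not overlap at either day.

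Timp3 encodes the inhibitor that stays bound to the matrix and also blocks several ADAM proteases (ENSRNOG00000004303, 7q13). It had 29.0, 26.3 and 18.9 CPM at T0, 60.8, 40.3 and 58.1 CPM in T7-RA and 63.7, 53.1 and 64.4 CPM in T14-RA. With RA the level was 37.1, 28.2 and 20.6 CPM at day 7 and 29.9, 22 and 38.1 CPM at day 14. The cultures with RA overlapped with T0 at both days, and those without RA lay above both.

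**Figure D1:**
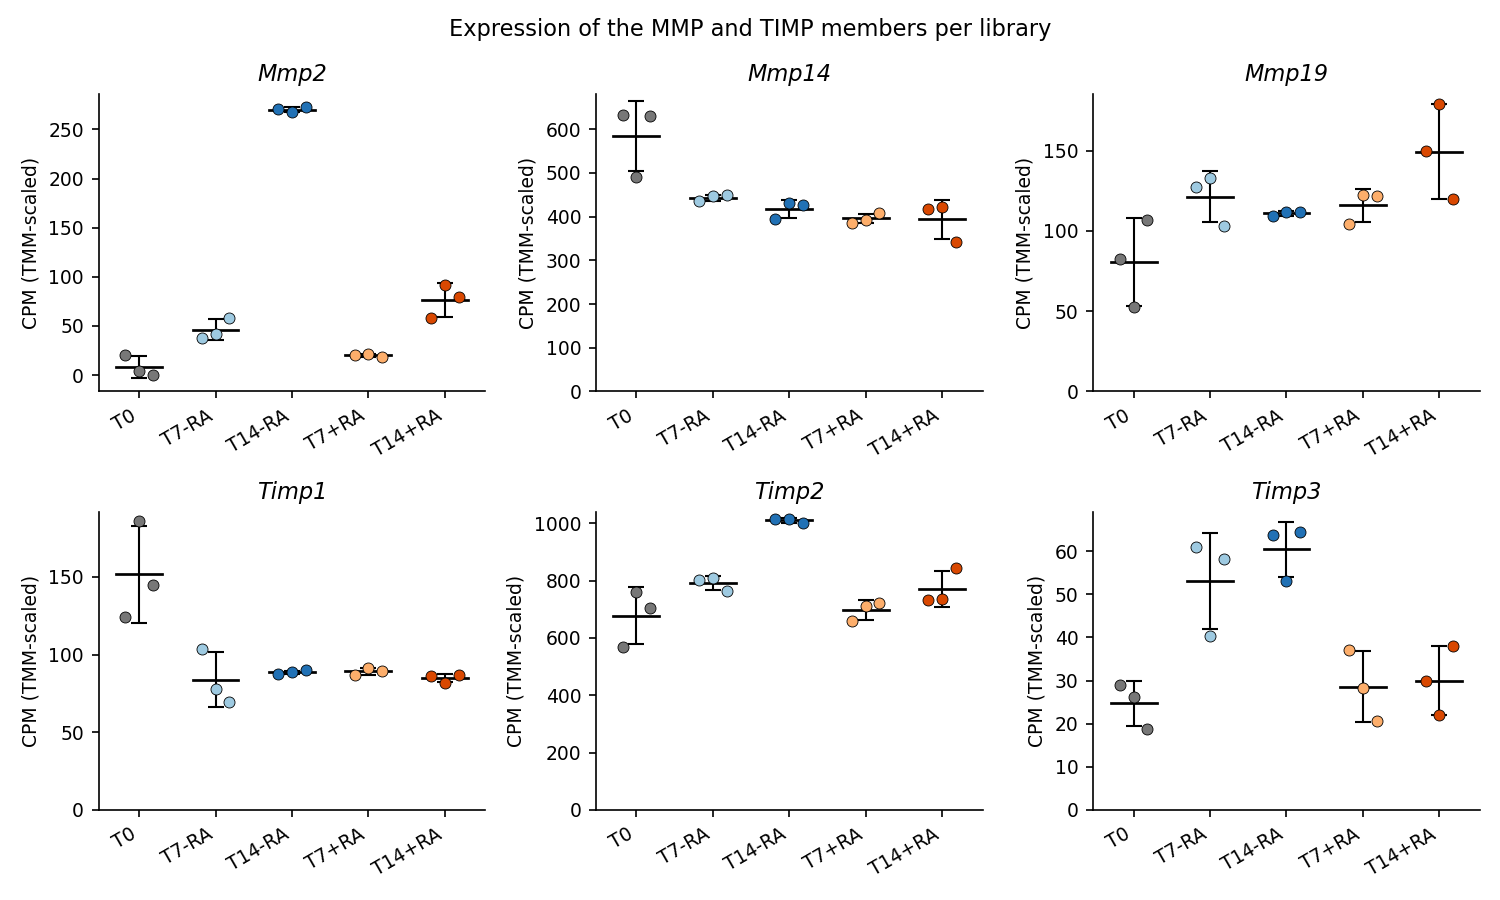
Level of each measured member in CPM (y axis, linear, TMM-scaled) in the 5 groups (x axis). Each point is 1 culture, the horizontal bar is the group mean and the error bar is the SD (n = 3). Mmp2, Timp2 and Timp3 are highest in T14-RA, and Mmp14 and Timp1 are highest at T0.

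The time question was first taken with the additive model of the study, with T7, T14 and RA terms, fitted with edgeR's quasi-likelihood test over all genes. In this model T7 and T14 are log2 changes against T0 adjusted for RA, and RA is the change over both days. T0 was taken after 24 h of attachment and all later cultures after serum had been lowered. Culture time and low serum therefore cannot be told apart in comparisons with T0. Genes were called at a Benjamini-Hochberg adjusted p under 0.001. The shares over all genes include genes with few counts, in which a change is less often called. The members lay between percentiles 54.6 and 99 of mean count. At T7, 3 of the 6 members were called, 2 higher and 1 lower, where 8.73% of all genes were called, 4.29% higher and 4.44% lower. Mmp2 rose by 2.36 (SE 0.403, adjusted p = 4.27e-05), Timp3 rose by 1.10 (SE 0.258, adjusted p = 0.000915) and Timp1 fell by 0.79 (SE 0.155, adjusted p = 7.7e-05). Mmp14 (−0.42, SE 0.105, adjusted p = 0.00168), Mmp19 (0.48, adjusted p = 0.0479) and Timp2 (0.28, adjusted p = 0.0403) did not pass.

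At T14, 5 of the 6 members were called, 3 higher and 2 lower, against 17.3% of all genes, 8.47% higher and 8.85% lower. Mmp2 rose by 4.71 (SE 0.314, adjusted p = 5.44e-14), Timp3 by 1.23 (SE 0.258, adjusted p = 0.000105) and Timp2 by 0.53 (SE 0.103, adjusted p = 3.03e-05). Timp1 fell by 0.79 (SE 0.157, adjusted p = 4.12e-05) and Mmp14 fell by 0.47 (SE 0.106, adjusted p = 0.000303). Mmp19 changed by 0.60 (SE 0.183, adjusted p = 0.00689), which missed the threshold of 0.001. Of the proteases 1 rose and 1 fell, and of the inhibitors 2 rose and 1 fell.

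The size of the Mmp2 change against T0 rested on few counts at T0, of which 1 library held most. Without the first T0 culture, the T7 change of Mmp2 was 4.56 and the T14 change 6.92. The summed myotube markers of that culture were 172 CPM, within 171 to 208 CPM of its group. The T7 change of Mmp2 was 1.90 without the third T0 culture. The T14 call of Mmp14 was lost without the first (adjusted p = 0.0117) or the third (adjusted p = 0.00487) T0 culture or the first T14-RA culture (adjusted p = 0.00284). It was also lost with library size only (adjusted p = 0.00501), with limma on quantile-normalized counts (adjusted p = 0.0506) and with at least 10 counts in every library (adjusted p = 0.00114). The calls of Timp1 were lost without the second T0 culture (adjusted p = 0.00471 at T7 and 0.0033 at T14), and its T7 call without the third T7-RA culture (adjusted p = 0.00117). The T14 call of Timp2 was lost without the first T0 culture (adjusted p = 0.00295). The T7 call of Timp3 was close to the threshold and was lost in 10 of the 15 fits made without 1 library and with limma-voom, limma-trend, quantile-normalized limma and DESeq2 (adjusted p = 0.0011 to 0.00344). Its T14 call was lost without the third T0 culture (adjusted p = 0.0013). Other settings added calls: Mmp19 passed at T14 without the third T0 culture (adjusted p = 0.000957), Mmp14 at T7 without the second T0 culture (adjusted p = 0.000128) or with DESeq2 (adjusted p = 0.000727), and Timp2 at T7 with limma on quantile-normalized counts (adjusted p = 0.000513).

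A model with a mean for each group, chosen after the data were seen for the comparisons with T0, gave each set of cultures against T0 separately. In T14-RA against T0, the calls were the same 5 members as for the T14 term, against 15.7% of all genes. In T14+RA against T0, 4 members were called, against 19.7% of all genes. Mmp2 was higher by 2.90 (SE 0.359, adjusted p = 1.02e-08) and Mmp19 by 0.90 (SE 0.175, adjusted p = 2.01e-05), while Mmp14 (−0.56, adjusted p = 1.37e-05) and Timp1 (−0.82, adjusted p = 4.2e-05) were lower. Timp3 changed by 0.23 (95% interval −0.36 to 0.82) and Timp2 by 0.19 (95% interval −0.01 to 0.38) in T14+RA, and neither passed (adjusted p = 0.582 and 0.134).

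At day 7, 2 members were called in T7-RA against T0 (Mmp2, 2.21, and Timp1, −0.82), against 8.78% of all genes. In T7+RA against T0, 2 members were called as well (Mmp14, −0.57, and Timp1, −0.75), against 10.4% of all genes. Mmp2 changed by 1.04 in T7+RA (SE 0.475, adjusted p = 0.106), and Timp3 by 0.20 (SE 0.306, adjusted p = 0.694). These comparisons all share the T0 cultures, so they are not independent of each other.

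**Figure D2:**
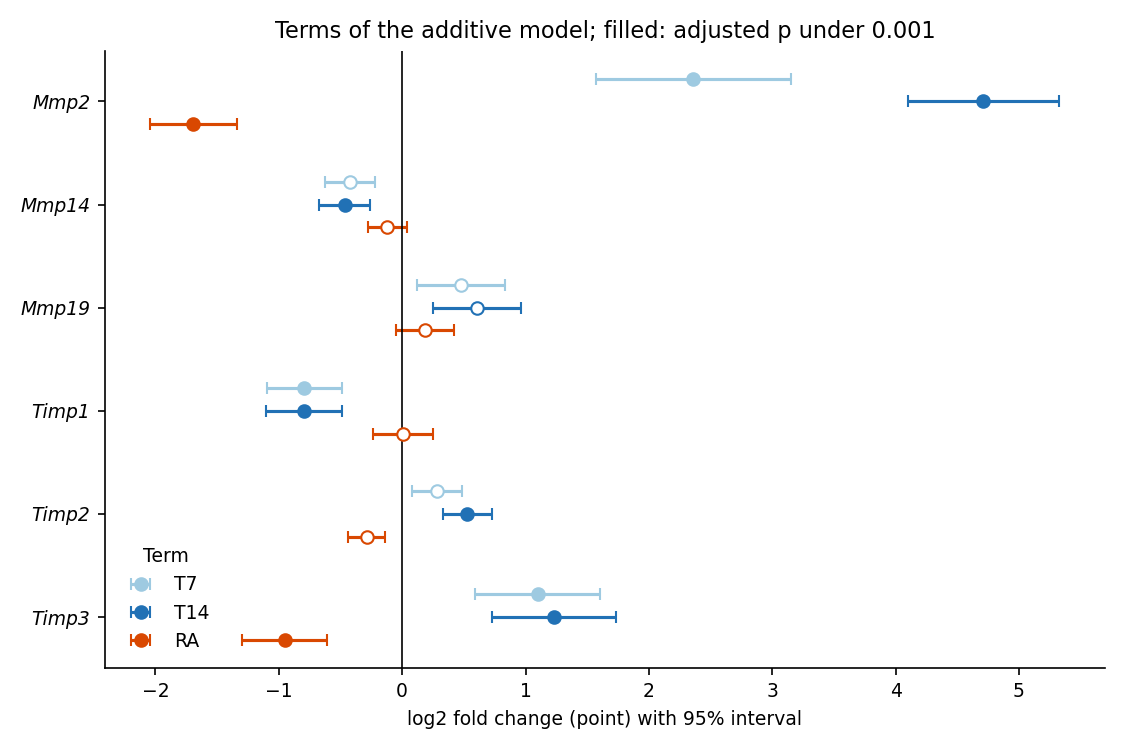
Log2 fold changes (x axis) of the T7, T14 and RA terms of the additive model for the 6 members (y axis), as points with 95% intervals from 15 cultures. Filled points passed an adjusted p under 0.001: 3 members for T7, 5 for T14 and 2 for RA.

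Between day 7 and day 14, in cultures that do not include T0, Mmp2 was the member that changed. Without RA its mean went from 46.0 ± 10.6 to 270 ± 2.597 CPM (SD, n = 3), 5.92-fold, and this was the 1 member called (log2 2.57, SE 0.201, adjusted p = 5.47e-13), against 2.95% of all genes. With RA it went from 20.1 ± 1.32 to 76.3 ± 16.9 CPM, 3.64-fold, again the 1 member called (log2 1.86, SE 0.293, adjusted p = 6.78e-06), against 4.67% of all genes. This call with RA was lost with limma-trend (adjusted p = 0.00166) and with limma on quantile-normalized counts (adjusted p = 0.00178). The Timp2 change was 0.35 without RA (SE 0.0958, adjusted p = 0.0103), which did not pass, and 0.14 with RA (adjusted p = 0.433). The other 4 members had changes between −0.14 and 0.37 over that week in both media, and none passed.

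The RA question compares cultures of the same day. For the RA term over both days, 2 of the 6 members were called, both lower, against 6.39% of all genes called, 3.33% higher and 3.07% lower. Mmp2 fell by 1.69 (SE 0.178, adjusted p = 5.82e-09) and Timp3 fell by 0.95 (SE 0.176, adjusted p = 3.22e-05). Timp2 changed by −0.29 (SE 0.0758, adjusted p = 0.00428), under the threshold of 0.05 but not that of 0.001, which it passed with limma on quantile-normalized counts (adjusted p = 0.000582). Mmp14 (−0.12, adjusted p = 0.391), Mmp19 (0.19, adjusted p = 0.368) and Timp1 (0.01, 95% interval −0.24 to 0.25, adjusted p = 0.985) did not pass. With any 1 library left out, the RA term of Mmp2 stayed between −1.75 and −1.50.

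At day 14, Mmp2 was 3.65-fold lower with RA (log2 −1.87, SE 0.187, adjusted p = 2.21e-10), the 1 member called, against 4.81% of all genes. The call was lost with limma-trend (adjusted p = 0.00124) and with limma on quantile-normalized counts (adjusted p = 0.00109). Timp3 was 30.0 ± 8.03 CPM with RA and 60.4 ± 6.29 CPM without (log2 −1.03, SE 0.246, adjusted p = 0.0018), and Timp2 was 770 ± 62.9 and 1009 ± 7.32 CPM (log2 −0.39, SE 0.0964, adjusted p = 0.00234). Both missed the threshold. Timp2 passed it with limma-voom (adjusted p = 0.00084), with limma on quantile-normalized counts (adjusted p = 9.32e-05) and without the second T0 culture (adjusted p = 0.000356) or the third T14+RA culture (adjusted p = 0.000997). Timp3 passed it without the second T0 culture (adjusted p = 0.000846). Mmp19 was 149 ± 29.8 CPM with RA and 111 ± 1.37 CPM without, a change of 0.44 (SE 0.16, adjusted p = 0.0655). The groups with and without RA did not overlap for 5 of the 6 members at day 14, where 27.2% of all genes showed no overlap. The fifth of these, Timp1, differed by only −0.06 (adjusted p = 0.904).

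At day 7, none of the 6 members was called in edgeR's test of T7+RA against T7-RA, where 3.17% of all genes were. At an unadjusted p under 0.05, 2 members passed, Mmp2 and Timp3, and DESeq2 and limma-voom also called none at an adjusted p under 0.001. Mmp2 changed by −1.17 (SE 0.319, adjusted p = 0.0138) and Timp3 by −0.87 (SE 0.251, adjusted p = 0.017). The groups did not overlap for Mmp2, Mmp14, Timp2 and Timp3, 4 of the 6 members, where 24.4% of all genes showed no overlap.

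The difference between the days was tested by itself, as the RA change at day 14 minus that at day 7. No member was called at an adjusted p under 0.05, where 0.743% of all genes were, so a larger RA change of Mmp2 at day 14 was not shown. The difference was −0.70 for Mmp2 (95% interval −1.47 to 0.07, adjusted p = 0.675), −0.15 for Timp3 (adjusted p = 0.96) and 0.51 for Mmp19 (95% interval 0.06 to 0.96, adjusted p = 0.52). Mmp19 was the 1 member with an unadjusted p under 0.05 (0.0287), and DESeq2 and limma-voom also called none.

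**Figure D3:**
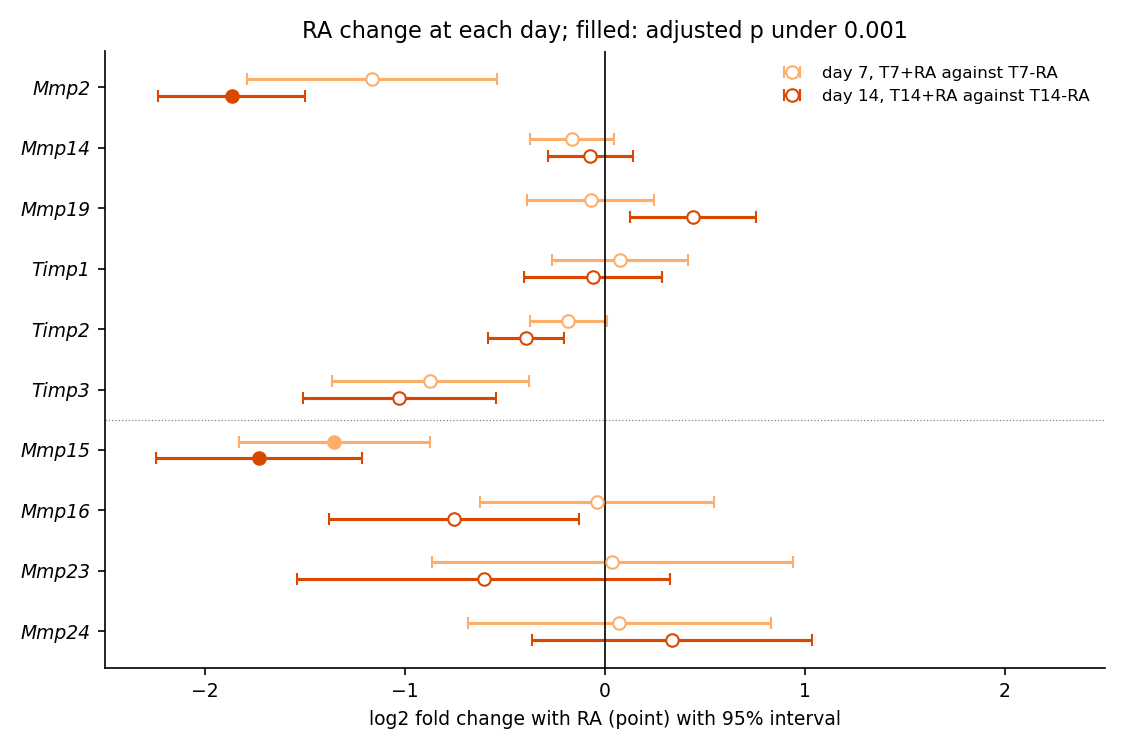
Log2 fold change with RA (x axis) at day 7 and day 14 for the 6 members and, under the dotted line, for 4 further MMP genes of the table (y axis), as points with 95% intervals, 3 cultures a group. Filled points passed an adjusted p under 0.001: Mmp2 at day 14 and Mmp15 at both days.

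After T0, the groups had the same order in Mmp2 and in the summed myotube markers. At day 14 the summed markers were 11150 CPM without RA and 5158 CPM with RA (group means), and Mmp2 was 270 and 76.3 CPM. Mmp2 per 1000 CPM of these markers was 24.2 ± 0.475 in T14-RA (SD, n = 3), 14.7 ± 2.68 in T14+RA, 15.4 ± 2.12 in T7-RA and 13.2 ± 1.89 in T7+RA. At T0, where both levels were low, it was 120, 21.98 and 0. The 3 T14-RA cultures, at 23.8 to 24.7, were above the other 9 later cultures, which had 11 to 17.6. Of the 8 markers, 6 rose at T7 and 8 at T14, and 5 fell with RA, against 8.73%, 17.3% and 6.39% of all genes called. Most of the sum in T14-RA was Myh3 (4937 to 5209 CPM), Acta1 (3084 to 3375 CPM) and Tnnt3 (1721 to 2052 CPM). At day 14 the media overlapped in Ckm and Des, and the RA change of Myog was not called (−0.17, adjusted p = 0.367). Timp2 and Timp3 were also higher in T14-RA than in T14+RA. The part that the share of myotubes has in these differences was not tested.

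**Figure D4:**
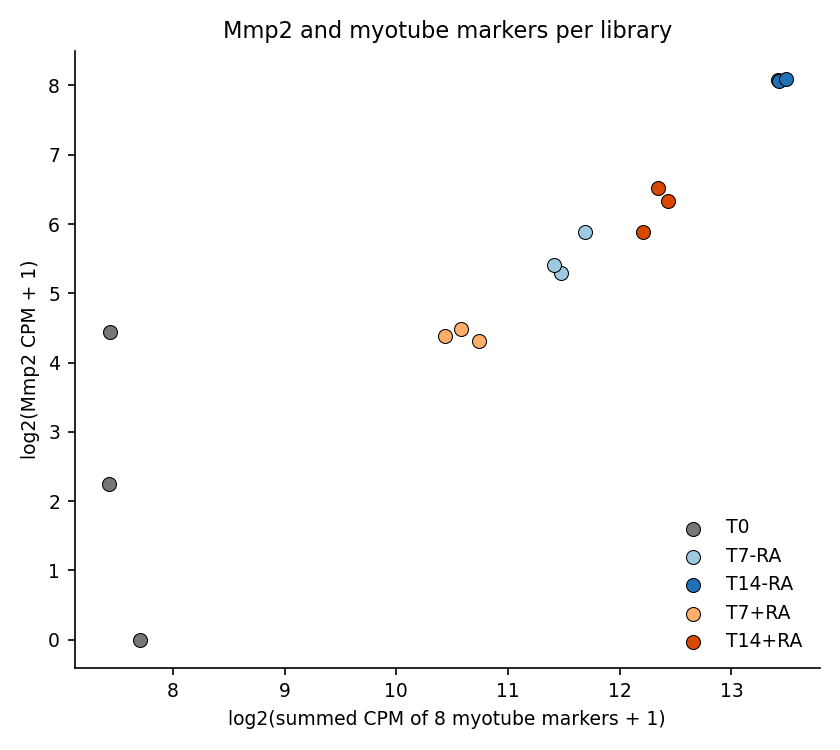
Mmp2 level (y axis, log2 of CPM + 1) against the summed level of 8 myotube markers (x axis, log2 of CPM + 1) in the 15 cultures, coloured by group. All later cultures lie to the right of T0, and T14-RA, at 267 to 273 CPM of Mmp2, lies highest.

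Other marker lists were summed in the same way. The 4 cycling markers, all in the table, summed to 1086 to 1392 CPM at T0. At day 7 they had 840 to 928 CPM without RA and 787 to 838 CPM with RA, and at day 14 405 to 446 and 250 to 397 CPM. None of the 4 was called for RA. The 4 smooth muscle markers, all in the table, summed to 15231 to 16810 CPM at T0 and to 3334 to 5303 CPM in the later cultures. The media overlapped at day 7 but not at day 14 (3334 to 3443 CPM in T14-RA and 3985 to 4790 CPM in T14+RA). Most of this sum was Acta2 (12347 to 12990 CPM at T0), and Acta2, Tagln and Cnn1 were highest at T0, as were Mmp14 and Timp1. Myh11, the fourth marker, had 8.28 to 11.3 CPM at T0 and 10.6 to 16.9 CPM in T14-RA and was not called (T14 0.32, adjusted p = 0.622). Of 7 fibroblast markers 5 were in the table, with 26017 to 38765 CPM at T0 and 18462 to 25814 CPM later. Most of this sum was Col1a1 (24296 to 37279 CPM at T0). At T7, 0 of the 5 rose and 1 fell, and at T14 2 rose and 2 fell, against 8.73% and 17.3% of all genes called. Dcn and Lum had no counts at T0 and rose at T14, while Postn (−1.35, adjusted p = 4.77e-12) and Col1a1 (−0.56, adjusted p = 7.17e-06) fell. Of 5 macrophage markers 1 was in the table (Cd14, 10.5 to 58.2 CPM) and of 4 endothelial markers 1 (Tek, 0 to 6.29 CPM). Their part in the levels of the members was not tested.

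Levels of different genes were compared per length, as CPM per kb of the gene length deposited with the counts. Timp2 was the highest member in every group, from 408 ± 58.9 at T0 to 608 ± 4.41 CPM per kb in T14-RA (SD, n = 3). Mmp14 was next in every group, from 240 ± 33.1 at T0 to 162 ± 18.2 CPM per kb in T14+RA, and at T0 its cultures overlapped with those of Timp1 (205 ± 42.4 CPM per kb). Timp1 was the third in every group. Mmp19 was the fourth in all groups but T14-RA, where Mmp2 took that place with 88.0 ± 0.846 CPM per kb, above Mmp19 with 55.3 ± 0.683. Mmp2 was the lowest member at T0 (2.65 ± 3.59 CPM per kb) and at day 7. In T14+RA, Mmp2 (24.8 ± 5.51 CPM per kb) and Timp3 (17.2 ± 4.596) overlapped.

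The summed level of the 3 inhibitors was above that of the 3 proteases in all 15 cultures, as CPM per kb. As CPM, the ratio was 0.983 in the first T0 culture, and its T0 mean was 1.31 in place of 2.30. Per kb, the ratio of the sums was 1.72, 3.16 and 2.02 at T0, 2.58, 2.34 and 2.31 in T7-RA and 2.52, 2.37 and 2.38 in T14-RA. It was 2.47, 2.48 and 2.42 in T7+RA and 2.17, 1.94 and 2.86 in T14+RA. All later groups thus fell, per kb, within the range of T0, while the composition of the protease sum changed. Mmp2 made up 0 to 2.19% of it at T0, 4.88 to 7.43% in T7-RA and 27.2 to 28.9% in T14-RA. With RA its share was 2.62 to 3.05% at day 7 and 7.12 to 11.5% at day 14. The share of Mmp14 went from 82.9 to 88.0% at T0 to 53.2 to 55.4% in T14-RA and 59.2 to 64.7% in T14+RA. In the inhibitor sum, Timp1 held 31.0 to 34.7% at T0 and 15.5 to 15.9% in T14-RA, and Timp2 rose from 63.2 to 67.3% to 79.2 to 80.3%. These sums are descriptions of mRNA levels, with no test.

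**Figure D5:**
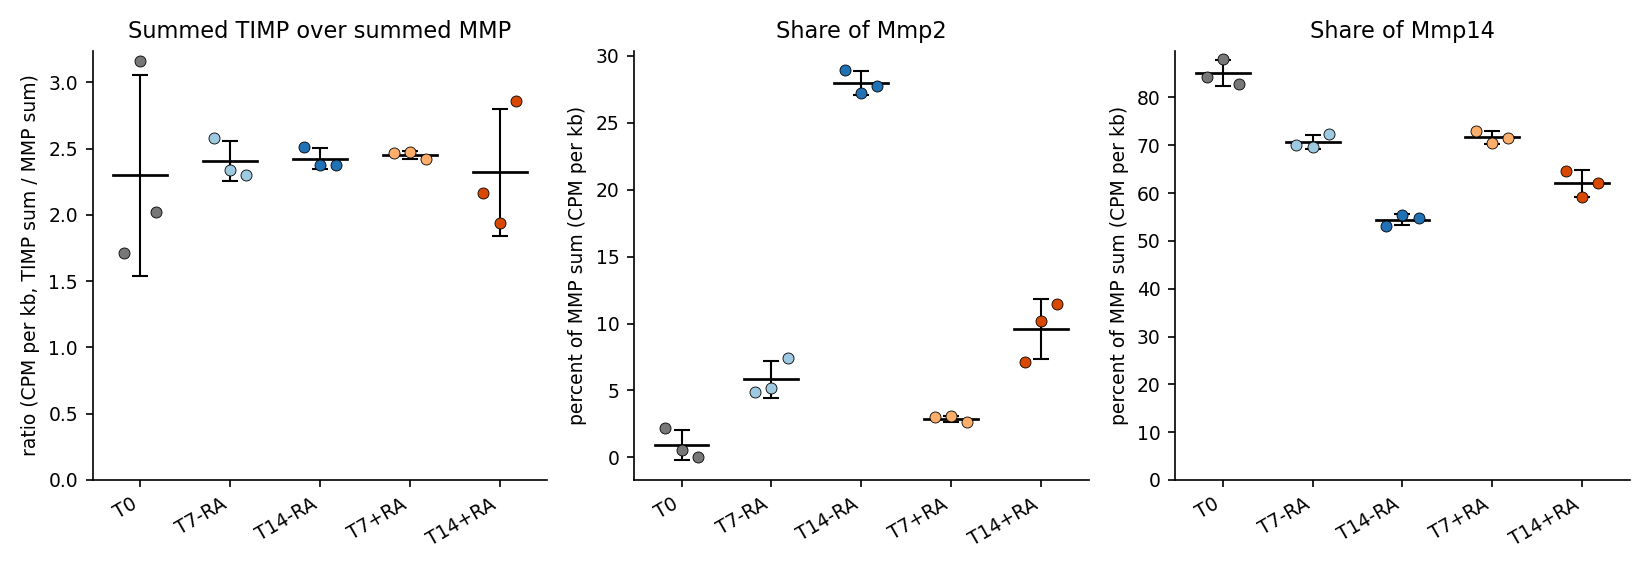
Left, summed TIMP over summed MMP level, and middle and right, percent of the MMP sum held by Mmp2 and Mmp14 (y axes, from CPM per kb), in the 5 groups (x axes). Points are cultures, bars group means and error bars SDs (n = 3). The ratio of the later groups lies within the T0 range of 1.72 to 3.16, and the share of Mmp2 is highest in T14-RA, at 27.2 to 28.9%.

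Across the 15 cultures, log2 levels were compared between members. Mmp2 had a Pearson r of 0.72 with Timp2, 0.71 with Timp3 and −0.68 with Timp1, and Mmp14 had 0.64 with Timp1. Mmp19 had −0.73 with Timp1 and 0.01 with Timp3. The points share groups and library scaling, so these values describe the groups as much as the cultures. The 3 genes most like each member, among 6390 genes with a mean of at least 20 counts, were C1s (r = 0.95), Cox8b and Cavin4 for Mmp2. They were Rrbp1 (r = 0.94), Plekhg2 and Numa1 for Mmp14, Naa20 (r = 0.86), Cep19 and Rabggtb for Mmp19, and Atf6b (r = 0.93), Trmt1 and Tnfrsf12a for Timp1. For Timp2 they were Prkab2 (r = 0.97), Eno3 and Trim54, and for Timp3 Adamts2 (r = 0.91), Mme and Vash2. With a prior count of 0.5 in place of 2, the same genes led for 5 members and none of the 3 for Mmp2.

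The sequence upstream of the start is shown for the 3 inhibitors, since Timp2 and Timp3 differed from Timp1 in the direction of the T14 term. The 250 bases before the start come from RefSeq in the GRCr8 build, which is not the build used for counting, and 5 of the 9 listed members matched that table. The GC box GGGCGG, searched on both strands, is in capitals. Each sequence is given 5′ to 3′ on the strand of its gene, the minus strand: Timp1 at chrX:3771123-3771372, Timp2 at chr10:104089215-104089464 and Timp3 at chr7:19459559-19459808.
Timp1: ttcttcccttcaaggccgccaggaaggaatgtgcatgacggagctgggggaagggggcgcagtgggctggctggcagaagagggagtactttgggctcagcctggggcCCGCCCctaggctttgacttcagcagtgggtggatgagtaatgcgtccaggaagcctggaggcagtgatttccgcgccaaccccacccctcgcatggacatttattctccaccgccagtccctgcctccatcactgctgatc
Timp2: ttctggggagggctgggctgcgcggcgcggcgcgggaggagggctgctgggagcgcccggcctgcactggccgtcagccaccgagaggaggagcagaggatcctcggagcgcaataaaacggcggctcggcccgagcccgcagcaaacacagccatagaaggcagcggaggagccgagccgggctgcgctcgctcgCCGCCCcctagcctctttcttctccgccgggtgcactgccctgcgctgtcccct
Timp3: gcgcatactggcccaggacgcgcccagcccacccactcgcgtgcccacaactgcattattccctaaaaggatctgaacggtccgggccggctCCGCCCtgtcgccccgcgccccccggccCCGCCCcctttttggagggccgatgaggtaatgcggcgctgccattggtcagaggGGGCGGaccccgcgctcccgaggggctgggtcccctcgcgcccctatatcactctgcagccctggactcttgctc
Timp1 and Timp2 each hold 1 GC box and Timp3 holds 3, and 30.5% of the 33469 upstream sequences of the same length hold at least 1. GC content was 61.2% for Timp1, 72% for Timp2 and 69.6% for Timp3, and the mean over all was 52.2%. None of the 3 holds the AP-1 letters TGANTCA (6.34% of all sequences do), the retinoic acid receptor motifs AGGTCA (14%) or GGTTCA (9.77%), TATAAA (12.9%) or the E box CAGCTG (12%), on either strand. A match is a description of letters only, and no match says only that these letters are not in this window.

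Of 17 further genes of the 2 families that were listed, 4 were in the table. Mmp15, a membrane-type MMP related to Mmp14, changed in the same directions as Timp3. Its level was 31.7, 22.5 and 18.9 CPM at T0, 65.6, 64.5 and 62.5 CPM in T7-RA and 62.5, 62.0 and 61.0 CPM in T14-RA, and with RA 22.8, 32.2 and 18.9 CPM at day 7 and 16.4, 15.7 and 25.4 CPM at day 14. It rose at T7 (1.40, adjusted p = 1.4e-05) and T14 (1.23, adjusted p = 8.23e-05) and fell with RA by 1.53 (SE 0.18, adjusted p = 6.41e-10), with a call at day 7 (−1.35, adjusted p = 3.05e-05) and at day 14 (−1.73, adjusted p = 5.59e-07). T7+RA and T14+RA cultures of Mmp15 were not called against T0 (−0.01 and −0.44, adjusted p = 0.988 and 0.295). Mmp16, Mmp23 and Mmp24 had no call in the T7, T14 or RA term, and Mmp24 came nearest, with 1.82 at T14 (adjusted p = 0.00192). Against T0, Mmp24 was called in T14+RA (2.09, adjusted p = 0.000331).

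Of 22 listed activators, receptors and other inhibitors of these proteases, 16 were in the table. At T7, 3 rose and 6 fell, at T14 3 rose and 7 fell, and with RA 1 rose and 4 fell, against 8.73%, 17.3% and 6.39% of all genes called for the 3 terms. The median log2 change of the 16 was 0.03, 0.04 and 0.12 for the 3 terms, and that of all genes was 0.02, 0.05 and −0.01. Thbs2, a thrombospondin that takes part in the clearance of MMP2 from the cell surface, rose by 3.86 at T7 (SE 0.339, adjusted p = 8.34e-14) and 5.66 at T14, and fell by 1.67 with RA (SE 0.133, adjusted p = 1.17e-15). Thbs1, its relative, fell by 1.35 at T7, 1.88 at T14 and 0.73 with RA (adjusted p = 1.36e-11). Cd44, a hyaluronan receptor that can hold MMPs at the cell surface, fell by 0.59 at T7 and 0.88 at T14, and its RA value of −0.20 did not pass (adjusted p = 0.133).

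Of 23 ADAM and ADAMTS genes, related metalloproteases some of which TIMP3 blocks, 20 were in the table. At T7, 2 rose and 3 fell, at T14 5 rose and 4 fell, and with RA 3 rose and 4 fell, against the same 8.73%, 17.3% and 6.39% of all genes. Their medians were 0.26, 0.31 and −0.23, beside 0.02, 0.05 and −0.01 for all genes. Adamts1, which cuts proteoglycans, fell by 1.47 with RA (SE 0.0963, adjusted p = 3.18e-19), and Adamts9, another proteoglycan protease, rose by 1.55 with RA (SE 0.126, adjusted p = 1.92e-15) where it fell by 1.48 at T7 and fell by 2.01 at T14. Adamts12 fell by 2.28 and Adam19, a membrane-bound ADAM, by 1.13 at T14.

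Of 17 listed matrix substrates, 16 were in the table. At T7, 1 rose and 6 fell, at T14 2 rose and 10 fell, and with RA 5 rose and 3 fell, where 8.73%, 17.3% and 6.39% of all genes were called. Their medians were −0.33, −0.63 and 0.13, beside 0.02, 0.05 and −0.01 for all genes. Col3a1, a fibrillar collagen, rose by 0.86 at T7 and 1.38 at T14 and fell by 0.48 with RA (SE 0.0678, adjusted p = 1.22e-07). Col4a1, the basement membrane collagen that MMP2 can cut, fell by 0.83 at T7, fell by 1.58 at T14 and rose by 0.53 with RA (SE 0.08, adjusted p = 6.47e-07). Its partner Col4a2 fell by 0.78 and 1.20, and the fibrillar Col5a1 by 0.89 and 1.23, at T7 and T14. Mmp2 and Col4a1 had opposite directions in all 3 terms. By day, Col4a1 was called higher with RA at day 7 (0.73, adjusted p = 9.29e-09), where Mmp2 was not called. It was not called at day 14 (0.31, adjusted p = 0.0232), where Mmp2 was. The RA term of Col4a2 did not pass (0.29, adjusted p = 0.0091). A link between Mmp2 and these collagens was not tested.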

How the data were processed

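RNA-seq counts of 15 H9c2 cultures were analysed, 3 in each group, with groups and replicate numbers from the sample titles. The authors trimmed and mapped the reads and deposited raw counts per gene, without normalization, for genes whose counts sum to more than 20 (smallest sum 21). The submitters' processing notes name HISAT2, featureCounts and the build Rnor_6.0, and the versions, annotation release and strand setting are not given in the sources used here, so reads of overlapping genes on opposite strands may be shared. The cell line field differs from H9c2 in the samples after T0, and the titles, which all name H9c2, were used. Symbols, identifiers, bands and lengths come from the deposited annotation, in which the definition of the length is not given.

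Counts per library were 508397 to 1030820. Counts were fitted with edgeR 4.0.16 (R 4.3.3, TMM, robust quasi-likelihood F test) as the additive model T7 + T14 + RA, the study's formula and threshold (adjusted p under 0.001), and as 5 group means. The study used limma; the count test was used here because the values are raw counts. P-values were adjusted over all 11574 genes within each contrast by the Benjamini-Hochberg method, the SE is the log2 change divided by the square root of F, and the 95% intervals are 1.96 SE. P-values measure the spread between cultures of 1 line. The biological coefficient of variation was 9.81%. All 15 pairs of replicate libraries differed by more than counting noise (chi-square per gene at least 1.07, largest p = 2.31e-07). Alternatives were RLE and library-size scaling, limma-voom, limma-trend, limma on quantile-normalized log2(count + 1) (limma 3.58.1), DESeq2 1.42.0, 2 filters, other thresholds, a replicate block, a prior count of 0.5, CPM in place of CPM per kb, and each library left out. In simulated tables, 119 of 200 genes given an RA change of 1 (log2) were called (59.5%), as were 93.8% of the 113 with a mean of at least 20 counts, with 1 false call. For the other 7 contrasts the share was 35.5% (the difference between days) to 43.5% (T14).

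Members, lists and tests were chosen with earlier results of these data known. From each family, activator, ADAM, substrate and factor list, up to 4 called genes with the lowest p over the T7, T14 and RA terms are named. Marker lists are given mainly as sums, and Thy1 was named after its values were seen. A result for 1 listed gene is not reported here. For likeness, the 3 genes with the highest Pearson correlation of log2 CPM (prior count 2) are named. Motifs were searched in the 250 bases before each start.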

Additional observations from a re-analysis of the deposited data

Results flagged for a closer look

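In 5 genes of the lists, the RA change at day 14 differed from that at day 7 when the difference itself was tested (edgeR, adjusted p under 0.05, as for 0.743% of all genes). Eln, the elastin gene, changed by −0.23 with RA at day 7 and −1.17 at day 14, a difference of −0.95 (SE 0.149, adjusted p = 2.23e-05). Adam12, an ADAM protease known from myoblast fusion, changed by 0.20 and −1.03, a difference of −1.23 (SE 0.263, adjusted p = 0.00764). Mymk, the membrane protein that drives myoblast fusion, changed by −0.93 and −2.28, a difference of −1.34 (SE 0.34, adjusted p = 0.0322). Etv4, an ETS factor, changed by 1.74 and 0.24, a difference of −1.49 (SE 0.354, adjusted p = 0.018). Ctsb, the lysosomal protease cathepsin B, changed by −0.14 and 0.36, a difference of 0.50 (SE 0.133, adjusted p = 0.0471). The summed myotube markers also fell with RA at both days, from 2959 to 1541 CPM at day 7 and from 11150 to 5158 CPM at day 14 (group means), and their part in these differences was not tested.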

How the results depend on the processing

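Of 1208 values of the 48 fold changes of the members under alternatives, 1127 kept direction and side of the threshold, 34 lost the call, 24 gained one and 23 changed sign. The sign changes concern small values: the RA term of Timp1 was −0.0149 with library size only and −0.00171 with at least 10 counts in every library (−0.0430 to 0.0826 over single libraries left out), and Mmp14 in T14+RA against T7+RA was −0.0133 with limma-trend and −0.00894 on quantile-normalized counts (−0.0467 to 0.0707 over libraries left out). With single libraries left out, Timp3 ranged from −0.32 to 0.0714 for the difference between days and from −0.13 to 0.26 in T14+RA against T7+RA, Timp1 from −0.0227 to 0.27 for RA at day 7 and from −0.0480 to 0.26 in T14-RA against T7-RA, Mmp19 from −0.16 to 0.00287 for RA at day 7 and Mmp14 from −0.12 to 0.0114 for RA at day 14. Counts of called members that moved by over 1.5 times were these. At least 10 counts in every library, which leaves Mmp2 and Timp3 out of the table, gave 1 for T7, 2 for T14 and 0 for RA, RA at day 14 and both weeks. An adjusted p under 0.05 gave 6 for T7, 2 for RA at day 7, 3 for RA at day 14 and 2 for T14-RA against T7-RA (also, within 1.5 times, 6 for T14 and 3 for RA). RA at day 14 had 2 members with limma-voom and 0 with limma-trend, and T14+RA against T7+RA had 0 with limma-trend and on quantile-normalized counts. The cause was not tested. Smaller moves were 4 for T14 with library size only and on quantile-normalized counts, 2 for T7 with limma-voom and limma-trend, and 3 for RA on quantile-normalized counts. With single libraries left out, members called were 1 to 3 for T7, 3 to 5 for T14 and 1 to 3 for RA at day 14.

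The replicate numbers showed little sign of pairing the cultures (mean correlation of deviations 0.018 for the same number and −0.009 for different numbers, and 6 of 15 libraries closest to their own number). Counting noise in genes with few counts could hide a pairing. A replicate block gave 3 members for RA at day 14 in place of 1 (Timp2, adjusted p = 0.000449, and Timp3, adjusted p = 0.000886) and changed no other count of members. Over all genes it raised the number called in every contrast, from 557 to 628 for RA at day 14 and from 86 to 118 for the difference between days. Scaling by library size only moved the all-gene median to 0.13 for T7 and 0.15 for T14 (log2). As CPM in place of CPM per kb, the mean ratio of TIMP to MMP sums was 1.31 to 1.53 in the 5 groups and the share of Mmp2 in T14-RA 33.8%. Mmp2 at T0 and Timp3 had few counts.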

Other observations

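The AP-1 and ETS factors drive many MMP genes. Of 13 listed, 12 were in the table, and at an edgeR adjusted p under 0.001 none rose and 1 fell at T7 (8.73% of all genes called), none rose and 2 fell at T14 (17.3%), and 1 rose and 1 fell with RA (6.39%). Their median log2 changes were −0.43, −0.41 and −0.05, beside 0.02, 0.05 and −0.01 for all genes. Ets1 fell by 1.21 at T7 (SE 0.209, adjusted p = 1.03e-05) and by 0.94 at T14. Fosl1, an AP-1 subunit, fell by 0.98 with RA (SE 0.212, adjusted p = 0.000402). Etv4 fell by 1.49 at T14 and rose by 1.06 with RA (SE 0.215, adjusted p = 0.000443). The other 9 measured factors, among them Fos and Jun, had no call in these terms.

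Among the fibroblast markers, Postn, which encodes the matrix protein periostin, fell by 5.46 with RA (SE 0.152, adjusted p = 1.18e-30), at day 7 (−5.27) and day 14 (−5.73). Dcn, which encodes the collagen-binding proteoglycan decorin, had no counts in the 3 T0 cultures, 42.5 to 56.5 CPM in T14-RA and 96.5 to 154 CPM in T14+RA, and rose with RA (1.08, adjusted p = 0.000229). It was called at day 14 (1.21, adjusted p = 8.81e-05) and not at day 7 (0.32, adjusted p = 0.852). Lum, its relative, also had no counts at T0, 25.4 to 30.1 CPM in T14-RA and 4.72 to 7.25 CPM in T14+RA, and fell by 1.88 with RA (adjusted p = 0.000484). It too was called at day 14 (adjusted p = 0.000639) and not at day 7 (adjusted p = 0.567). Of the 5 fibroblast markers in the table, 1 rose and 3 fell with RA, the third being Thy1 (−0.49, adjusted p = 5.26e-05), against 6.39% of all genes called.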
